A study of Mus musculus with 20 samples.

Results

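Muscle RNA of male mice transgenic for human mutant TDP-43 was compared with muscle RNA of wild-type controls on Illumina mouse bead arrays. The comparison takes 8 of the 20 arrays of the study, chosen by their titles, with 4 arrays of each genotype. The labels give the mutants as heterozygous for transgenic human mutant TDP-43 and the controls as wild type, all on the C57BL/6J background and aged 17 weeks. Each array carries its own mouse number, so the replicates are separate mice. The labels name neither the muscle taken nor the promoter of the transgene, the mutation or where the transgene is inserted. The title of the study concerns a mouse model of TDP-43 pathology, circulating fatty acids and, among others, the fatty acid transporter CD36.

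TDP-43, encoded by Tardbp, is a nuclear RNA-binding protein that takes part in splicing and RNA stability and is known to limit the amount of its own mRNA. It leaves the nucleus and aggregates in amyotrophic lateral sclerosis (ALS) and in part of frontotemporal dementia, and it also forms granules in regenerating muscle. Skeletal muscle is built of slow, oxidative fibres and fast, glycolytic fibres, with connective tissue, vessels, nerve, fat and resident macrophages between them, so that RNA of whole muscle holds the RNA of all these cells. In such bulk RNA, fewer cells of a type and less RNA per cell cannot be told apart.

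The tissue label was borne out by its markers. All 18 fast-fibre genes on the array were tested, and their mean level was 12.28 to 12.37 (normalized log2 intensity) in every mouse. The Y-linked Eif2s3y was detected on all 8 arrays. Between 11469 and 12446 of the 25697 probes were above background on an array (detection p under 0.05), and 11706 probes of 8297 named genes that were detected on at least 4 arrays were tested. Wild type 2 stood apart from the other arrays: it lay at 39.08 on the principal component that held 40.3% of the variance, against -12.13 to 14.06 for the others, and its median correlation with them was 0.9711. Mutant 4 followed with 0.9814, and the other 6 arrays had 0.9881 to 0.9898. Results that rest on wild type 2 are therefore given with and without it.

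Genotype differences in muscle were few and nearly all in a single direction. Of the 11706 probes tested, 21 passed a limma test at an adjusted p of 0.05, which is 0.179%. In the mutant 20 of them were lower (0.171% of all probes) and 1 was higher (0.00854%). The 21 probes measure 18 named genes, and 15 of these belong to a list of 58 genes of the pancreatic acinar cell, the exocrine cell that makes digestive enzymes. The remaining 4 probes measure the small GTPase gene Rab6b, Tardbp itself, the retinol-binding protein gene Rbp7 and an unnamed transcript, ILMN_1224275. On all 21 probes the 4 mutants and the 4 wild-type mice did not overlap, as was the case for 1.09% of all probes with the mutants below and 1.06% with the mutants above.

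**Figure D1:**
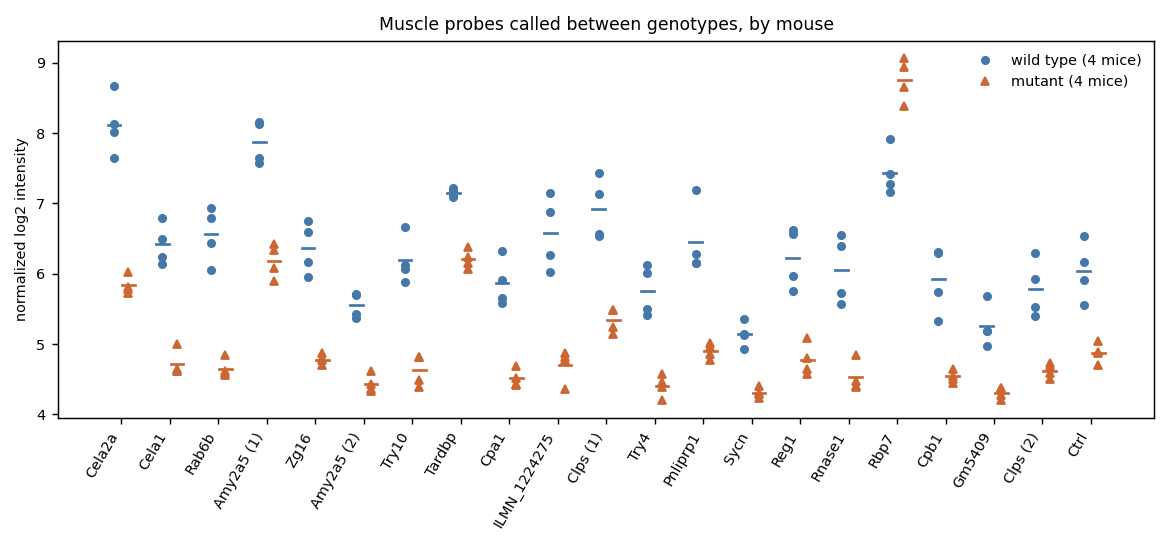
Normalized log2 intensity of the 21 called probes in each mouse, with circles for wild type, triangles for mutant and short lines for the group means; genes with 2 called probes are numbered in brackets. In every column the 4 mutants lie on one side of the 4 wild-type mice, and Rbp7 is the column in which they lie above.

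Over the whole array the genotypes were close. The difference was under 0.5 on the log2 scale for 98.8% of probes, and the median 95% confidence interval reached 0.312 to either side of the estimate. Unadjusted p-values under 0.05 numbered 353, or 3.02% of probes, where 585 would be expected with no difference at all. Without wild type 2 they numbered 648, so the low count is no measure of how close the genotypes were. A fitted difference of over 1 was seen for 26 probes, 22 lower and 4 higher, of which 8 did not pass. For 3 of the 26, which were above background in 0 mutants, the fitted value is no measured size, and for 2 of these the lower bound was under 1 on the log2 scale. Among these 8, Cel and Cela3b belong to the acinar group described below. The other 6 varied widely between mice of the same genotype, for example Tmem87a, which ran from 4.31 to 6.32 in wild type and from 5.93 to 7.70 in mutants. Simulated data drew each probe as independent normal values around its mean, with the variance of the limma fit. There 92.5% of probes with a true difference of 1 and 17.5% of those with a true difference of 0.5 were called. No simulated array stood apart as wild type 2 did, so these shares may not hold for the 8 mice.

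**Figure D2:**
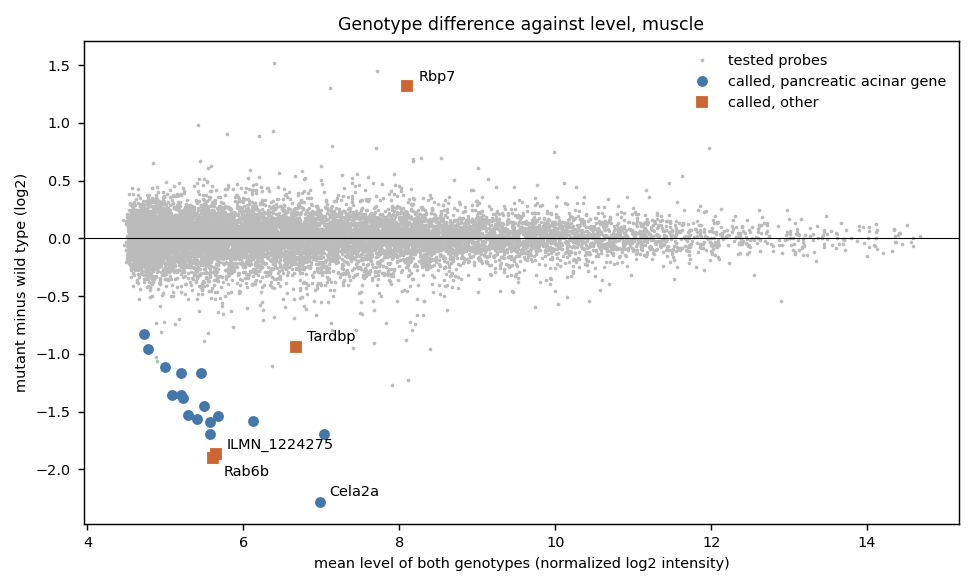
Log2 difference between the genotype means (mutant minus wild type) of the 11706 tested probes against the mean level of both genotypes, with called acinar probes as circles and the other 4 called probes as squares. Most probes lie close to 0 at every level, the called acinar probes lie between -2.28 and -0.83, and Rbp7 lies at 1.32.

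The acinar genes are taken here by the class of product. Acinar cells pack precursors of proteases, lipases, amylase and ribonuclease into zymogen granules and secrete them into the gut, and a set of helix-loop-helix factors, Ptf1a among them, is known to bind short E-box motifs before their start sites. Of the 15 called acinar genes, 11 had an entry in the RefSeq promoter table of build GRCm38.p6. The 250 bases before the start site are shown for Cela2a, Cela1 and Amy2a5, the acinar genes of lowest p, each read 5′ to 3′ on the gene's strand. Capitals mark the E-box letters CACCTG (or CAGGTG on the other strand), the E-box letters CAGCTG, and the TATA-box letters TATAAA (or TTTATA on the other strand).
Cela2a, chr4:141826006-141826255, minus strand: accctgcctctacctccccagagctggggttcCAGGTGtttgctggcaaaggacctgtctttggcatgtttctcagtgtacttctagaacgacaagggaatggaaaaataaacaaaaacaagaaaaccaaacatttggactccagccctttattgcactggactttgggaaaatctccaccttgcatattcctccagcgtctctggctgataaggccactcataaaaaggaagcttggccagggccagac
Cela1, chr15:100687921-100688170, minus strand: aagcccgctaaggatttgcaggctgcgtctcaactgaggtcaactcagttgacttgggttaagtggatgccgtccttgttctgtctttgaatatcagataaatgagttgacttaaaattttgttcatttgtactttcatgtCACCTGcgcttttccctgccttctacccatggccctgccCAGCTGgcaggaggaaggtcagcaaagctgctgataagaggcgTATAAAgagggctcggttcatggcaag
Amy2a5, chr3:113258700-113258949, minus strand: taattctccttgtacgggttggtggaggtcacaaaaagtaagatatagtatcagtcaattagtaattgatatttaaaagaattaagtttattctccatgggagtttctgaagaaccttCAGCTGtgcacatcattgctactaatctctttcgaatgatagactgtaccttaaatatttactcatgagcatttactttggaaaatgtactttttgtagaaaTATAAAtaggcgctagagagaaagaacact
The letters CACCTG were found before 5 of the 11 genes (Cela2a, Cela1, Try4, Ctrl and Cpb1) and in 17.2% of all 32851 promoter windows of this length. CAGCTG was found before 3 (Cela1, Amy2a5 and Ctrl) and in 13% of all windows. TATAAA was found before 4 (Cela1, Amy2a5, Try4 and Reg1) and in 12.4% of all windows. These matches describe letters only and say nothing of binding in muscle.

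Proteases made up the largest share of the called acinar genes. Cela2a, which encodes a pancreatic elastase, was at 8.02, 8.13, 7.65 and 8.67 in wild types 1 to 4 and at 5.79, 6.03, 5.81 and 5.73 in mutants 1 to 4. It was detected in every muscle, the mutants lay close together, and the highest wild type was mouse 4. The mutant level was 4.85-fold lower: the gene fell by 2.28 on the log2 scale (SE 0.19, limma adjusted p = 0.00171), and its log2 difference was -2.26 without wild type 2. The related elastase gene Cela1 was at 6.14, 6.49, 6.24 and 6.79 in wild type and at 4.65, 4.62, 5.00 and 4.62 in mutants. It fell by 1.69 (SE 0.16, limma adjusted p = 0.00221). Cela1 was also detected on all 12 brain arrays of the study, whereas Cela2a was detected on none of them, so a Cela1 signal by itself does not mark the pancreas.

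The trypsinogen gene Try10 was at 5.88 to 6.67 in wild type and 4.39 to 4.82 in mutants, and fell by 1.56 (SE 0.18, limma adjusted p = 0.00511). A second trypsinogen gene, Try4, was detected in 4 wild types and 0 mutants. For such a gene the fold is a lower bound, taken against the lowest level that counted as detected on each mutant array, by which wild-type muscle had at least 2.26-fold more Try4 RNA (limma adjusted p = 0.00878). Gm5409, also detected in 0 mutants, differed by at least 1.6-fold in the same direction (limma adjusted p = 0.0337). Trypsinogen genes of the mouse are close copies of each other, so these probes may not measure single genes. The carboxypeptidases Cpa1 and Cpb1, which trim amino acids from the end of peptides, had log2 differences of -1.35 and -1.39, and each was above background in only 1 mutant. The chymotrypsin-like Ctrl fell by 1.17 (SE 0.19, limma adjusted p = 0.043). Ctrl was detected in all 8 muscles and all 12 brains. The calls of Ctrl, Cpb1 and Gm5409 were each lost when any 1 of the 4 mutants was left out. With single mice left out their limma adjusted p reached 0.205, 0.124 and 0.165, and they were called in 4 of 17, 5 of 16 and 5 of 16 alternatives. Wild type 1 also decided all of them, wild type 2 Ctrl and Gm5409, and wild type 4 Ctrl and Cpb1.

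Genes of fat, starch and RNA digestion moved the same way. The pancreatic amylase gene Amy2a5 was at 7.58, 8.13, 7.64 and 8.16 in wild type and at 6.34, 6.08, 6.43 and 5.90 in mutants, and fell by 1.69 (SE 0.17, limma adjusted p = 0.00336). Its other called probe was at 5.37 to 5.71 in wild type and fell by 1.11 (SE 0.12, limma adjusted p = 0.00511). That probe was above background in only 1 mutant. Amylase genes are near copies, and the salivary and liver form Amy1 gives the contrast within the family: it was at 6.81 to 7.46 in wild type and 6.71 to 7.77 in mutants, a difference of -0.01 (SE 0.22). Clps, the cofactor that anchors pancreatic lipase to fat droplets, fell by 1.58 (SE 0.20, limma adjusted p = 0.00878), with a log2 difference of -1.16 on its second probe. The lipase-related Pnliprp1 was at 6.28, 6.16, 6.15 and 7.19 in wild type, against 4.78 to 5.02 in mutants, and fell by 1.54 (SE 0.21, limma adjusted p = 0.0176). The pancreatic ribonuclease gene Rnase1 fell by 1.53 (SE 0.22, limma adjusted p = 0.0194) and was above background in 1 mutant. It was also detected on 5 wild-type and 4 mutant brain arrays. Leaving out any 1 mutant ended the calls of Pnliprp1 (limma adjusted p up to 0.0817) and of the second Clps probe (up to 0.17), the latter also without wild type 2 or 4. Rnase1 lost its call without mutant 2, 3 or 4 or wild type 4 (limma adjusted p up to 0.11).

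The last of the called acinar genes encode proteins of the granule and its secretion. Zg16, a lectin of the zymogen granule membrane, was at 5.96 to 6.75 in wild type and 4.71 to 4.87 in mutants and fell by 1.59 (SE 0.17, limma adjusted p = 0.00336). Sycn (syncollin), a further granule protein, was detected in 0 mutants, and its wild-type level was higher by at least 1.47-fold (limma adjusted p = 0.0188). Reg1, a secreted lectin-like protein of acinar cells, fell by 1.45 (SE 0.21, limma adjusted p = 0.0188). In each of these genes the wild-type mice with the highest values were 2 and 4, apart from Sycn, in which wild types 3 and 4 were highest. Sycn did not pass when any of mutants 1 to 3 or wild types 3 and 4 was left out (limma adjusted p up to 0.102), nor Reg1 when mutant 1, 3 or 4 or the fourth wild type was (up to 0.103). Of all 21 called probes, 12 kept their call whichever single mouse was left out and 9 did not.

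The whole acinar list shows what lay outside the called set. Of its 46 genes on the array, 24 were tested and 22 were not, and 14 were detected in no muscle. The number of acinar genes above background was 26, 28, 24 and 29 in wild types 1 to 4 and 16, 12, 10 and 17 in mutants 1 to 4. The mean level of the 24 tested genes was 5.94, 6.23, 5.86 and 6.44 in wild type and 5.07, 5.03, 4.99 and 5.00 in mutants. The list level thus varied more among wild types than among mutants. Many mutant values lay at background, where little variation can show. The median log2 difference of the 24 was -1.26, and it was -1.17 with the 6 genes detected in 0 mutants at their bounds. Of the 24, 10 were detected in all wild types and in at most 1 mutant, and passed the detection filter through their wild-type signal. Try10 and Spink1, detected in 2 mutants each, and Reg1, detected in 3, also needed wild-type detection to pass. The lower level of all these genes in mutants was therefore in part a condition of being tested.

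Next by p among the acinar genes, and not passing, were the bile salt-activated lipase Cel and the elastase Cela3b, each above background in 0 mutants. The level of Cel in wild type was higher by at least 1.74-fold (limma adjusted p = 0.0876) and that of Cela3b by at least 1.79-fold (limma adjusted p = 0.0946). The chymotrypsinogen Ctrb1 (log2 difference -0.73, adjusted p = 0.171), the trypsin inhibitor Spink1 (-0.81, 0.243) and the trypsinogen Prss2 (at least 1.27-fold, adjusted p = 0.63, detected in 0 mutants) followed in the same limma fit. On each of these 5 probes the mutants lay below all wild types. The 4 tested acinar genes that overlapped between genotypes were Amy1, the granule membrane gene Cuzd1 (0.20), the nuclear receptor gene Nr5a2 (0.00) and the stress-response gene Nupr1 (-0.32), none of which is confined to the pancreas. Nor are all called acinar genes, since Cela1, Ctrl and Rnase1 were also detected in brain. The genes detected nowhere include Ctrc, the factors Ptf1a, Rbpjl and Gata4, the cholecystokinin receptor gene Cckar and the Reg3 family.

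Markers of neighbouring organs were mostly below background in every muscle. Of 18 islet genes on the array, 1 to 3 were above background per mouse, and the hormone genes Ins2, Gcg, Ppy and Iapp were detected in none. Of 11 duct genes 2 to 5 were detected, and Krt19 and Cftr in none. Salivary gland markers gave 1 to 4 of 13, and liver markers gave 3 to 7 of 17 with Alb and Apoa1 in none. Only 1 islet, 4 duct, 2 salivary gland and 4 liver genes were tested, against 24 acinar genes. In these 4 lists 0 genes were called, which with so few tested genes says little. In the same lists 0 genes were above background in all wild types and no mutant, and in the acinar list there were 6. The lists were chosen with earlier results known and no share over all genes was taken, so these counts are not compared. The part that other tissue taken with the muscle has in the acinar difference was not tested.

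Of the called genes outside the acinar list, Rab6b had the lowest p. Rab6b is a small GTPase that steers vesicles from the Golgi and is abundant in neurons. It was at 6.44, 6.06, 6.79 and 6.94 in wild types 1 to 4 and at 4.85, 4.59, 4.62 and 4.56 in mutants, where it was above background in mice 1 and 3 only, 2 of the 4. Without its wild-type detections this probe would not have been tested. The gene fell by 1.90 (SE 0.18, limma adjusted p = 0.00221), which is 3.74-fold. Wild type 2 was the lowest wild type here, and without it the log2 difference was -1.99 (SE 0.14, limma adjusted p = 0.000273), the lowest p of that fit. Rab6b was detected on all 12 brain arrays. The other neuronal markers did not go with it. Of 19 neuronal genes, Rab6b among them, 6 to 8 were above background per muscle. Snap25, Syt1, Nefl, Nefh and Gap43 were detected in none. Map2 (0.28), Uchl1 (0.12) and Eno2 (0.09) lay slightly above wild type without passing. The list of Rab genes and related genes of the Golgi and secretory path counts Rab6b itself. Of its 19 tested genes 18 did not pass and Rab6b did, where 0.205% of all named genes passed as lower. Of the 19, 11 lay below wild type, where 46.2% of all named genes did. The list median was -0.02, against 0.01 over all named genes. Rab1b (0.56), Rab27a (-0.31) and the golgin gene Gcc2 (0.24) were next by p in that list.

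The endogenous Tardbp gene was measured by 4 probes, which did not respond alike. ILMN_3093089 was at 7.22, 7.17, 7.10 and 7.09 in wild type and at 6.24, 6.38, 6.16 and 6.07 in mutants, which is 52.3% of the wild-type level (log2 difference -0.94, SE 0.11, limma adjusted p = 0.00511). The SD within wild type was 0.06, so this small fall was among the clearest on the array. ILMN_1244811 was at 6.02 to 6.35 in wild type and 5.26 to 5.70 in mutants, with no overlap, but the difference of -0.63 (SE 0.13, limma adjusted p = 0.277) did not pass. The dim ILMN_3029953 was at 4.83 to 4.96 in wild type and 4.68 to 5.22 in mutants, a difference of -0.04 (SE 0.13), and ILMN_1228976 was above background in 2 mutants only and was not tested. No probe is known here to be specific to the human transgene, and binding of transgene RNA to these mouse probes was not tested.

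Genes beside Tardbp on chromosome 4 (order from the RefSeq table of GRCm38.p6) gave a range of small differences. Masp2, a serine protease of the complement lectin pathway and the adjacent gene, was above background in 1 wild type and 4 mutants, with a difference of 0.39 (SE 0.14, limma adjusted p = 1.0). The spermidine synthase gene Srm had 3 probes at -0.21, -0.07 and 0.10, and the RNA exosome gene Exosc10 was at -0.14. On the other side Pex14, needed for import into peroxisomes, was at -0.10, and Casz1 was too dim to be tested. Rbp7, which was called, lies 10 protein-coding genes from Tardbp.

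Rbp7 was the only probe that rose and passed. It encodes a small cellular retinol-binding protein known from fat and its vessels. It was at 7.42, 7.16, 7.92 and 7.28 in wild types 1 to 4 and at 9.07, 8.39, 8.94 and 8.66 in mutants 1 to 4. The lowest mutant, at 8.39, lay above the highest wild type, at 7.92, and the rise of 1.32 (SE 0.19, limma adjusted p = 0.0212) is a 2.50-fold difference. This call was lost, with a limma adjusted p of 0.09, when the acinar probes were left out of the test, and also when any of 5 single mice was left out (wild types 1 and 4, mutants 1, 3 and 4). Over all alternatives its log2 difference stayed between 0.96 and 1.48, with limma adjusted p from 0.00969 to 0.205. The retinoid genes as a list did not share it. Of 12 tested, Rbp7 included, 5 lay below and 7 above wild type with a median of 0.06. Aldh1a1 (0.33), Rarb (-0.17) and Rarres2 (-0.24) did not pass. In the adipocyte list 0 of 13 tested genes passed, with a median of 0.08. The adipocyte list level was highest in mutant 1 (9.94), whose Rbp7 was also the highest. Mutant 3 had an Rbp7 of 8.94 and an adipocyte level of 8.84, the lowest of all mice. The relation of Rbp7 to the adipocyte level was not tested.

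ILMN_1224275, to which the platform annotation gives no gene, was at 6.03, 6.88, 6.26 and 7.15 in wild type and at 4.77, 4.82, 4.36 and 4.88 in mutants. It fell by 1.87 (SE 0.23, limma adjusted p = 0.00878) and was detected in 4 wild types, 3 mutants and 0 brains. Among wild types, mice 2 and 4 were highest, as they were in the acinar list level.

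When the 26 tested acinar probes were left out before testing, 3 of the remaining 11680 probes were called, or 0.0257%. They were Rab6b (limma adjusted p = 0.00662), Tardbp ILMN_3093089 (0.0203) and ILMN_1224275 (0.0309). Of the named genes outside the acinar list that came next by p in the full fit, none passed. The cyclin gene Ccng2, a FoxO target, was at 6.68 to 7.05 in wild type and 6.14 to 6.41 in mutants (log2 difference -0.60, SE 0.12, limma adjusted p = 0.243). The peroxisomal membrane gene Pxmp2 (-0.73), the autophagy-related Wdr45b (-0.51) and Cdk5rap1 (-0.53), which modifies mitochondrial tRNA, also lay below wild type in all mutants. Serpina1b, an alpha-1 antitrypsin gene of the liver (0.65), the NF-kappaB inhibitor gene Tnip1 (0.45) and Trim44 (0.43) lay above in all mutants. Serpina1b and Trim44 were above background in 1 wild type and 4 mutants, and Wdr45b in 4 wild types and 1 mutant. Serpina1b, Trim44 and Wdr45b thus passed the detection filter through the genotype in which they were higher. All these genes were picked by low p. Over all probes, 1.09% had every mutant below and 1.06% every mutant above the wild types.

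Leaving out wild type 2 changed which genes were called more than how many. In that fit 20 probes passed (0.171%), 19 lower and 1 higher, of which 18 were also called with all 8 mice. Of the called probes, 14 were acinar. Ctrl, Gm5409 and the second probe of Clps were called only with wild type 2 (adjusted p = 0.056, 0.056 and 0.0821 without it in the limma fit). Both probes of Twistnb, a subunit of RNA polymerase I that transcribes ribosomal RNA genes, were called only without it. The brighter of them was at 6.92, 6.50 and 6.55 in wild types 1, 3 and 4, at 5.06 in wild type 2 and at 5.39 to 5.66 in mutants. Wild type 2 thus lay below every mutant on this probe. The log2 difference was -1.15 without wild type 2 (limma adjusted p = 0.00585) and -0.77 with it (adjusted p = 1.0). Polr1a, the largest subunit of the same enzyme, was also among the lowest p of that fit, without passing (-0.52 without wild type 2, limma adjusted p = 0.254, and -0.28 with it), and was at 4.45 in wild type 2 against 5.49 to 5.58 in the other wild types. With both wild type 2 and the acinar probes left out, 5 probes were called: Rab6b, Tardbp, ILMN_1224275 and the 2 probes of Twistnb.

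The chemokine gene Ccl8 and the hydrolase gene Rbbp9 came next without wild type 2, each with a limma adjusted p of 0.0552. Ccl8 was at 5.56 to 6.07 in mutants and at 4.31, 4.61 and 5.03 in wild types 1, 3 and 4, but at 6.49 in wild type 2, so its difference was 1.07 without that mouse and 0.67 with it. The amino acid transporter gene Slc7a7 had the same layout, at 4.66 to 5.06 in mutants, 4.18 to 4.32 in 3 wild types and 5.05 in wild type 2 (0.52 without it, limma adjusted p = 0.338). Ccl8 was above background in 2 wild types and 4 mutants and Slc7a7 in 1 wild type and 4 mutants. Both thus needed mutant detection to be tested. Without wild type 2, 648 unadjusted p-values lay under 0.05, in place of 353, where 585 would be expected with no difference.

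The genes that set wild type 2 apart are of recognisable kinds. It lay over 2-fold above the median of the other 7 mice on 242 tested probes and below it on 200, against at most 52 and 76 for any other mouse. Highest were the collagen gene Col1a1 (10.85 against 7.29 to 8.40), the fibroblast gene Lrrc15 (7.35 against 4.39 to 5.18), the lysozyme gene Lyz2 of macrophages (10.69 against 7.55 to 8.57), C1qtnf3, Htra3, Wfdc17 and the lipid droplet gene Cidea. Cela2a, at 8.13 against 5.73 to 8.67, was also among the 8 by its distance from this median, though wild type 4 was higher and the 4 mutants were the low mice. Lowest were the calcium channel subunit gene Cacna2d1 (6.00 against 7.42 to 10.07), Pi4kb, Dctn1, Pdpk1, Paip1, Pcyt1a, Nipsnap2 and the muscle phosphofructokinase gene Pfkm. Other probes did not all bear out these low values: Pfkm was at 7.20 on the probe in question, against 10.15 to 10.53, but its other 2 probes differed from the median of the other mice by -0.06 and -0.29, whereas Pdpk1 was low on both of its probes.

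Gene lists were described by counts and medians, each gene by its brightest probe, beside the 8297 named genes tested, of which 46.2% lay below wild type with a median of 0.01. Of the 49 lists, 44 had no called member. The called members of the other 5 are the genes already described.

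**Figure D3:**
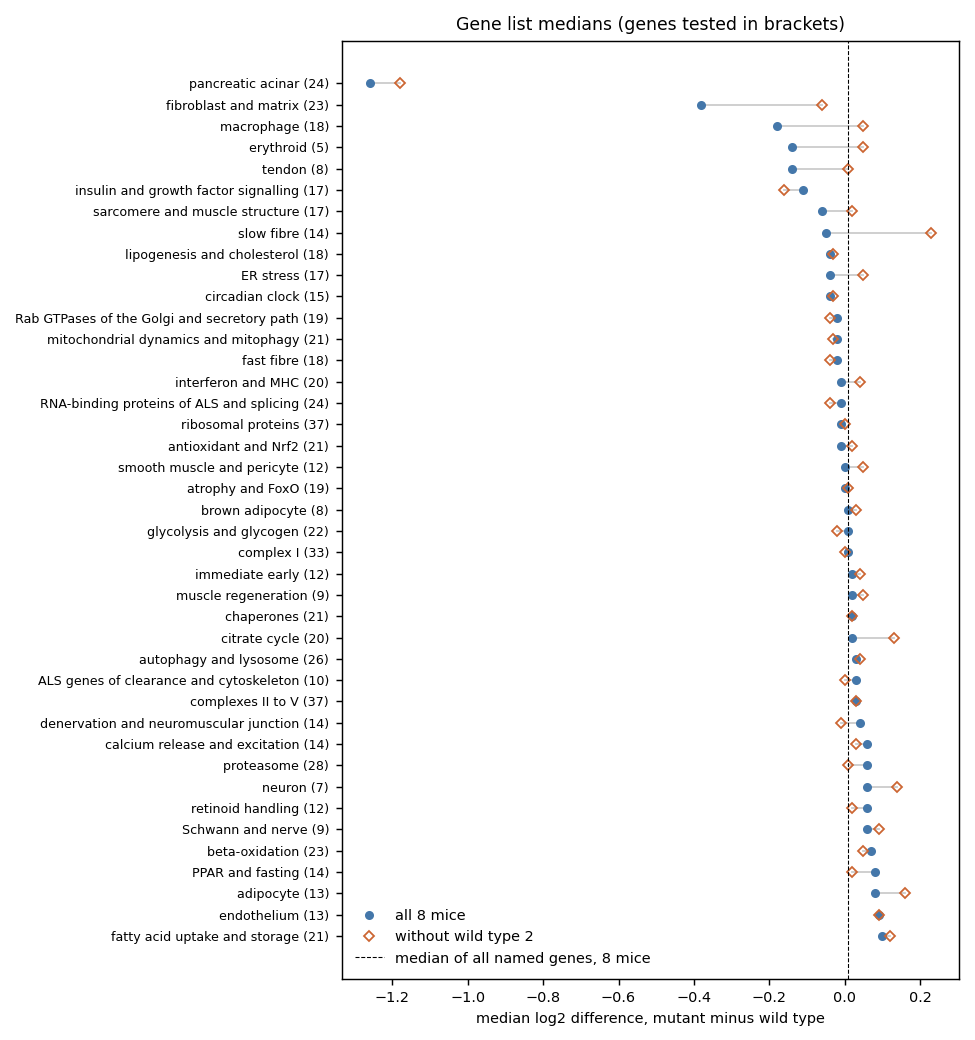
Median log2 difference (mutant minus wild type) of each gene list with at least 5 tested genes, with all 8 mice (filled circles) and without wild type 2 (open diamonds); the dashed line is the median of all named genes and the number of tested genes stands in brackets. The acinar list lies at -1.26 and -1.18 by fitted values, the matrix, macrophage and slow-fibre lists shift most when wild type 2 is left out, and the other lists lie within 0.2 of 0 both ways.

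Connective tissue and macrophage genes lay below wild type with all mice, and their medians came close to 0 without wild type 2. All 23 matrix genes tested lay below, with a median of -0.38, and 0 passed. The list level was 8.17, 9.37, 8.21 and 8.15 in wild types 1 to 4 and 8.29, 8.07, 7.88 and 8.09 in mutants. Only wild type 2 was clear of the mutants, and without it 18 of 23 lay below with a median of -0.06, where 46.8% of all named genes lay below. Col1a2 (-0.62, and -0.44 without wild type 2), the thrombospondin gene Thbs2 (-0.65 and -0.27), Col3a1 (-0.68 and -0.27) and Col5a1 (-0.54 and -0.19) had the lowest p, none passing. Of 18 macrophage genes 17 lay below wild type with a median of -0.18, but 5 lay below and 13 above without wild type 2 (median 0.05). Their list level was 7.27 in wild type 2 and 6.12 to 6.64 in all other mice. The Fc receptor gene Fcgr3 (-0.66 and -0.38) and the mannose receptor gene Mrc1 (-0.40 and -0.12) led by p. Tendon genes followed the same course, with 8 of 8 below wild type (median -0.14) and 3 of 8 below without wild type 2 (median 0.01).

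**Figure D4:**
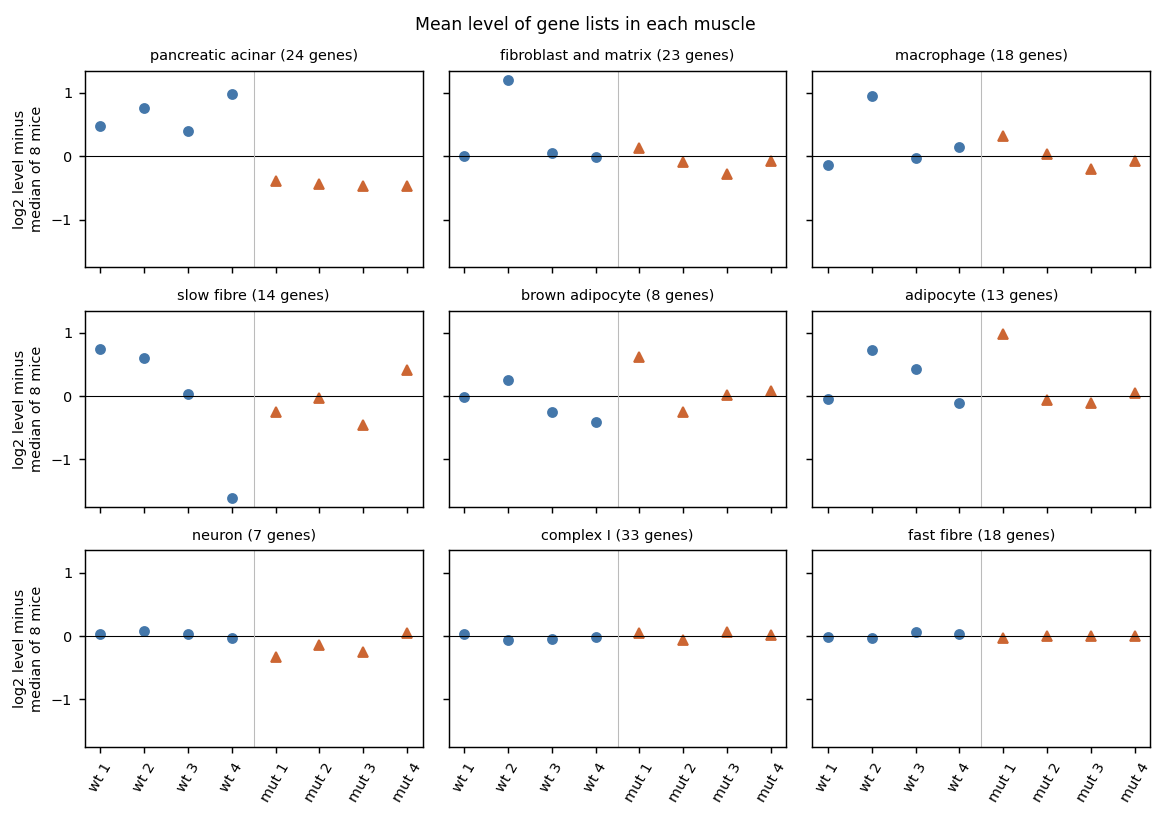
Mean normalized log2 level of the tested genes of 9 lists in each mouse, minus the median of the 8 mice, with circles for wild type and triangles for mutant. The acinar list separates the genotypes, wild type 2 stands out in the matrix and macrophage lists, wild type 4 in the slow-fibre list and mutant 1 in both adipocyte lists, while complex I and fast-fibre genes lie close to 0 in every mouse.

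Contractile genes differed between mice more than between genotypes. Slow-fibre genes, which encode the myosin, troponin and calcium pump forms of oxidative fibres, had list levels of 9.87, 9.72, 9.16 and 7.51 in wild types 1 to 4 and 8.88, 9.09, 8.67 and 9.53 in mutants. Of the 14 tested, 8 lay below and 6 above wild type (median -0.05), and 5 below and 9 above without wild type 2 (median 0.23). The slow troponin C gene Tnnc1 was at 7.26 in wild type 4 and at 8.94 to 11.95 in the other mice. The slow light chain genes Myl3 (8.25 against 12.29 to 12.89) and Myl2 (8.47 against 10.91 to 12.30) and the slow troponin T gene Tnnt1 (7.78 against 9.48 to 11.94) were likewise lowest in wild type 4. The fast-fibre list lay at 12.28 to 12.37 in all mice, with 9 of 18 genes on each side of wild type. Of these probes 8 were over 14 in every mouse, near the top of the scale at 14.68, where quantile normalization leaves little room to differ. Sarcomere genes (17 tested, median -0.06) and genes of calcium release and excitation (14 tested, median 0.06) had 0 called members, with the membrane repair gene Dysf (0.28) and the calcium channel subunit gene Cacng1 (0.28) of lowest p.

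Genes known to respond to denervation, wasting and regeneration did not pass in any case. Denervation and neuromuscular junction genes had 5 of 14 below wild type and a median of 0.04. Gadd45a, induced when a muscle loses its nerve, lay at -0.31 (SE 0.12), the receptor kinase gene Musk at -0.33 and the acetylcholine receptor subunit gene Chrna1 at 0.13. In the atrophy list, which holds the FoxO-driven ubiquitin ligases, 10 of 19 lay below (median -0.00), with Nfkbia at 0.29 and Foxo1 at -0.32. Regeneration genes had 3 of 9 below (median 0.02), with the myogenic factor gene Myod1 at 0.23. The median 95% interval of a probe, before adjustment, reached 0.312 to either side, and differences larger than this may also have been missed. In the simulated data 17.5% of probes with a true difference of 0.5 were called.

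With all 8 mice the lists of energy metabolism had medians close to 0. Complex I had 13 of 33 genes below wild type (median 0.01) and complexes II to V had 11 of 37 (median 0.03), with Ndufb10 (0.61, SE 0.26) and the ATP synthase gene Atp5h (0.23, SE 0.15) of lowest p. The list level of complex I ran from 11.33 to 11.46 over the 8 mice. The citrate cycle had 8 of 20 below (median 0.02, and 0.13 without wild type 2), and glycolysis and glycogen had 10 of 22 (median 0.01), with the muscle fructose bisphosphatase gene Fbp2 at 0.33. Genes of mitochondrial dynamics and mitophagy had 12 of 21 below (median -0.02), with the mitochondrial transcription factor gene Tfam at 0.14 and the mitophagy kinase gene Pink1 at -0.10. In these 5 lists 0 genes passed.

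The lipid lists had 0 called members. Fatty acid uptake and storage had 16 of 21 above (median 0.10) and mitochondrial beta-oxidation 16 of 23 (median 0.07), where 4461 of 8297 named genes lay above. The lipid droplet gene Plin5 (0.30, SE 0.23) and the medium-chain dehydrogenase gene Acadm (0.24, SE 0.12) had the lowest p. Cd36, the transporter of the title, was above background in 0 of 8 muscles on its probe, so it gave no value. PPAR and fasting genes had 8 of 14 above (median 0.08) and lipogenesis and cholesterol genes 8 of 18 (median -0.04), with the desaturase gene Scd2 at -0.48 and the sterol demethylase gene Cyp51 at 0.28. Insulin and growth factor signalling had 11 of 17 below (median -0.11, and -0.16 without wild type 2), with the receptor gene Igf1r at 0.33, the translation factor gene Eif4e at -0.40 and Igf1 at -0.30.

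Genes of protein quality control were near 0 as lists. Medians were 0.06 for 28 proteasome genes, 0.03 for 26 autophagy and lysosome genes, 0.02 for 21 chaperones and -0.04 for 17 genes of ER stress, with 0 called. The Hsp70 partner gene Dnajb1 lay at 0.42 (SE 0.12, limma adjusted p = 1.0), above all wild types in every mutant. The small heat shock gene Hspb7 was at -0.66, the proteasome genes Psmd8 and Psmb5 at -0.54 and -0.48 and the stress factor gene Atf4 at 0.42, and the genotypes overlapped in each. The lysosomal membrane gene Lamp2, at 0.20 (SE 0.10, limma adjusted p = 1.0), was at 10.24 to 10.34 in wild type and 10.37 to 10.63 in mutants, so that the genotypes did not overlap, and it did not pass. Antioxidant genes had 11 of 21 below (median -0.01), with catalase, Cat, at 0.46. Among RNA-binding proteins of ALS and splicing, Tardbp was the 1 called gene of 24 (median -0.01), and Ptbp1 (-0.26), Srsf3 (0.14) and Ang (-0.36) were next. Among 10 ALS genes of clearance and cytoskeleton 5 lay on each side. The dynactin gene Dctn1 had the lowest p of these, at 0.69 with wild type 2 and -0.02 without it. Ribosomal protein genes had 20 of 37 below (median -0.01), with Rpl22 at 0.33.

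Regulatory genes and other cell types gave the same picture of single genes without a list. Clock genes had 8 of 15 below (median -0.04), with Bhlhe40 at 0.35. Immediate early genes had 5 of 12 below (median 0.02), with Egr1 at -0.88 (SE 0.39) and Klf4 at 0.44. Interferon and MHC genes had 12 of 20 below (median -0.01), with Oasl2 at 0.45. Endothelial genes (13 tested, median 0.09), Schwann cell and nerve genes (9 tested, median 0.06) and smooth muscle and pericyte genes (12 tested, median -0.00) had 0 called members, with the pericyte receptor gene Pdgfrb at 0.46 and the myelin gene Ncmap at 0.32.

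Adipocyte genes set mutant 1 apart. The list level was 9.94 in mutant 1, 8.84 to 9.0 in the other mutants and 8.91, 9.69, 9.38 and 8.85 in wild types 1 to 4. The list of brown adipocyte genes was highest in the same mouse (9.51). Its best known member, the uncoupling protein gene Ucp1, was at 8.14 in mutant 1, at 4.92 to 5.30 in the other mutants and at 5.08, 6.09, 4.32 and 4.19 in wild type (log2 difference 0.98, SE 0.66). Cidea was at 9.52 in mutant 1 and 8.71 in wild type 2, against 5.65 to 7.58 in the other mice. Neither gene passed. Of the 8 tested genes of the brown adipocyte list, only Ucp1 and Cidea were highest in mutant 1. Each of the others was higher in some other mouse, for example Cox7a1, at 12.92 in mutant 1 and 13.48 in wild type 2.

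The genes with the largest spread within genotype include several that switch between mice. Gdpd3, a phospholipase D-type enzyme gene, was at 8.58 in wild type 1 and at 4.76 to 5.04 in the other wild types, and at 7.90 and 8.42 in mutants 2 and 3 but 4.43 to 4.54 in mutants 1 and 4. Nudt6 was at 4.60 in wild type 1 and 8.09 to 9.0 in the other wild types, and at 8.95 and 7.95 in mutants 2 and 4 but 4.98 and 5.09 in mutants 1 and 3. Both genes thus had high and low mice in each genotype, with no value between 5.09 and 7.90. Cish, a feedback inhibitor of cytokine signalling, ran from 5.22 in mutant 2 to 10.87 in mutant 4, the widest range of the 12 genes.

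**Figure D5:**
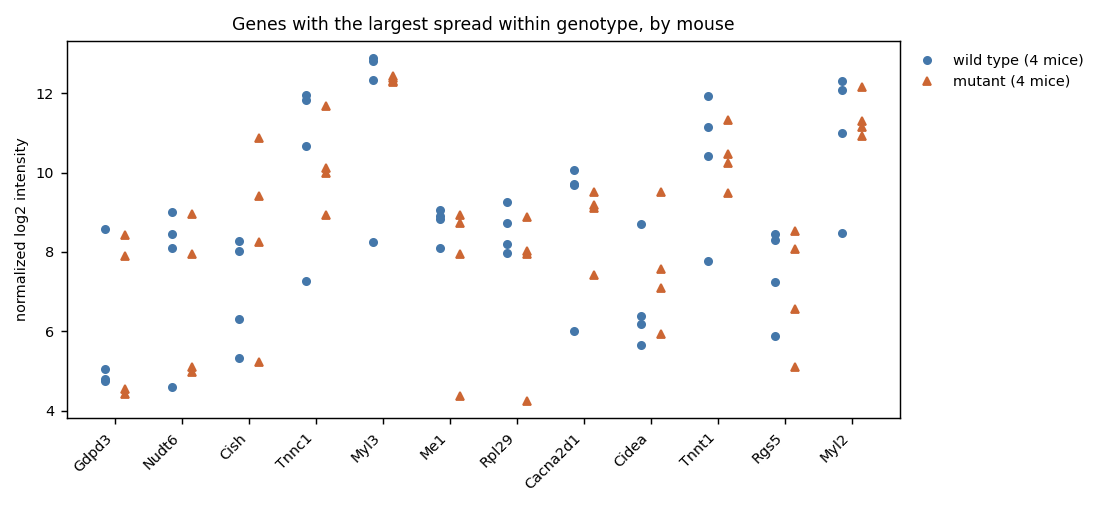
Normalized log2 intensity in each mouse of the 12 genes with the largest SD within genotype, with circles for wild type and triangles for mutant. High and low mice occur in both genotypes for Gdpd3, Nudt6 and Cish, and wild type 4 is the lowest circle for Tnnc1, Myl3, Tnnt1 and Myl2.

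A single mouse decided some of the others. Me1, the cytosolic malic enzyme gene, was at 4.37 in mutant 3 and 7.95 to 9.05 elsewhere on one probe, but at 10.65 in mutant 3 on its other probe, where the remaining mice lay at 9.29 to 10.60. The ribosomal gene Rpl29 was likewise at 4.24 in mutant 3 and 7.95 to 9.27 elsewhere on one probe, and at 9.21 in mutant 3 on its other probe, against 9.61 to 10.43. The drops of these genes in mutant 3 were therefore seen at full size on one probe only. Rgs5, a pericyte gene, was low in mutant 4 (5.11) and wild type 2 (5.89), the pair of arrays that stood apart from the rest.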

How the data were processed

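Per the labels' protocols, muscle RNA was extracted with Trizol and RNeasy columns and labelled with biotin by the MessageAmp kit. The deposited intensity values are signals of single arrays, not normalized, with a detection p-value for each probe in the same deposited table. Per the submitters' processing notes, GenomeStudio 2011.1 was used. A second deposited table of intensity values, which the authors had processed further, has the same probe ranks as the signals and values down to -13.35; it served as an alternative. The platform annotation gives 1 gene for 23978 probes and none for 1719, which are unnamed here.

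Signals of the 8 muscle arrays were background-corrected (normexp, negative controls inferred from detection p), given an offset of 16, quantile normalized and put on the log2 scale with limma 3.58.1 in R 4.3.3. The offset and background shrink fold changes of dim probes. Probes with detection p under 0.05 on at least 4 arrays were tested with lmFit and eBayes, and p-values of the 11706 probes were adjusted by Benjamini-Hochberg (threshold 0.05). Differences are mutant minus wild type. A probe detected in 0 mice of a genotype has only a bound there: its fold sets the mean of the brighter genotype against, on each array, the larger of the probe's own level and the lowest level of any detected probe. Detection was also counted on 12 brain arrays.

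Named genes were every called probe, those of next lowest p up to 30 genes, the lowest p without wild type 2 to 16, up to 4 per list, the 12 with the largest spread within genotype, the 8 highest and 8 lowest in wild type 2, and Tardbp with neighbours within 3 genes; Rbp7's place, Tmem87a and some list members were singled out after their values were seen. A gene is named by its probe of lowest p and enters a list by its brightest. The 49 lists hold 1083 genes; members and lists were chosen with earlier results of these data known. Replicate numbers did not pair the mice. Correlations of same-numbered mice were 0.015, -0.23, 0.106 and -0.25. Precision is limited by the number of arrays. The fit was tested on simulated data. Another gene in the study's title is not reported.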

Additional observations from a re-analysis of the deposited data

Results flagged for a closer look

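Within a genotype, a mouse was marked when its gap to the nearest other mouse, divided by the range of the 4, exceeded Dixon's 95% critical value for 4 samples. Of 172 groups of 4 looked at, 17 were marked, and chance alone marks about 1 in 20 groups that were not chosen for their spread. Many of these genes were: the genes of wide spread, those apart in wild type 2 and those named from the test without it were picked for features that favour a mark, so the share is not read against that rate.

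Among called genes, Cela1 was highest in mutant 3 (5.00, with the next mutant at 4.65) and Pnliprp1 was highest in wild type 4 (7.19, next 6.28). Among genes that did not pass, Serpina1b was lowest in wild type 4 (4.34, next 4.56) and Pxmp2 was lowest in mutant 4 (6.90, next 7.62). Of the genes with a wide spread, Gdpd3 was highest in wild type 1 (8.58, next 5.04), Myl3 was lowest in wild type 4 (8.25, next 12.34) and Cacna2d1 was lowest in wild type 2 (6.00, next 9.69).

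At the level of lists, the adipocyte genes were highest in mutant 1 (9.94, next 9.0). The matrix genes (9.37, next 8.21) and the interferon and MHC genes (7.13, next 6.79) were highest in wild type 2.

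Single genes named for the same mice were marked too. Ucp1 (8.14, next 5.30) and Lrrc15 (5.18, next 4.49) were highest of the mutants in mutant 1. Among wild types, mouse 2 was highest in Col1a1 (10.85, next 8.06), Lyz2 (10.69, next 8.05) and Slc7a7 (5.05, next 4.32), and lowest in Pfkm (7.20, next 10.30) and Polr1a (4.45, next 5.49).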

How the results depend on the processing

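The count of called probes, 21 with all mice, was 21 with the authors' values and with an intensity trend and 22 with array weights. It was 1 without background correction, 2 with median scaling, 8 without a detection filter, 8 with detection on all 8 arrays, 8 with an offset of 50 and 3 without the acinar probes. Leaving out single mice gave 12 to 23, with 13 without mutant 1 and 12 without mutant 3. With the replicate number as a block it was 12; as the numbers do not pair the mice, that loss is not read as a weaker effect. Without wild type 2, 20 probes were called; under the same alternatives the count was 0 without background correction (608 unadjusted limma p-values under 0.05), 1 without a detection filter, 9 with detection on all arrays, 7 with the offset of 50, 22 with median scaling (4 higher, 18 lower), 27 with an intensity trend (3 higher, 24 lower) and 5 without the acinar probes, a combination added after the data were seen. Leaving out a further mouse gave 10 to 23, with 11 without mutant 2 and 10 without mutant 3. Apart from the acinar genes, the 3 calls became 1 without background correction, with median scaling, without a filter and with detection on all arrays, and 0 with the replicate block (281 unadjusted). Leaving out single mice gave 0 to 5: 5 without wild type 2, 1 without wild type 3 or 4 or mutant 1, and 0 without mutant 3 or 4 (239 and 325 unadjusted).

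Cela2a and Rab6b were called in 16 of 17 alternatives each, both losing the call without background correction. Tardbp ILMN_3093089 was called in 16 of 18, lost with median scaling and the replicate block, and Rbp7 in 8 of 18. Of the 21 probes, 12 were called with any single mouse left out and 9 were not: Ctrl was called in 4 of 17 alternatives, Cpb1, Gm5409 and the second Clps probe in 5 of 16, Sycn and Rnase1 in 7 of 16, Reg1 in 8 of 16 and Pnliprp1 in 8 of 17. Differences of called probes kept their direction in every alternative run. Named genes that turned sign were small differences or genes apart in wild type 2, none of them called. With array weights Amy1 was at 0.1, Nr5a2 at -0.038, Eno2 at -0.0085 and Tardbp ILMN_3029953 at 0.0077. With single mice left out the ranges were -0.21 to 0.14 for Amy1, -0.065 to 0.092 for Nr5a2, -0.091 to 0.22 for Eno2, -0.16 to 0.017 for Tardbp ILMN_3029953, and -0.17 to 0.017 and -0.035 to 0.22 for 2 probes of Srm. In Dctn1 (-0.022 to 0.98), Col1a1 (-1.06 to 0.015), Lyz2 (-0.82 to 0.16) and Pfkm (-0.05 to 1.06) the sign turned without wild type 2. List medians turned sign in at least 1 setting for 37 of 49 lists, among them 13 without wild type 2 and 8 with median scaling. The acinar, matrix, fatty acid uptake, beta-oxidation and insulin lists kept theirs. So did the lists of complex I, complexes II to V, calcium release, proteasome, ALS clearance, liver, and neutrophil and mast cell genes. The cause of these changes was not tested. Signal over background limits the dim results: without background correction the differences were -1.28 for Cela2a, -0.57 for Cela1 and -0.65 for Rab6b.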

Other observations

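The 6 probes with a difference of over 1 that did not pass and measure no acinar gene each had a wide spread. Timmdc1, an assembly factor of complex I, was at 5.90 to 6.73 in wild type, at 6.54 and 7.09 in mutants 1 and 3 and at 8.57 and 8.87 in mutants 2 and 4. Plac9a was at 6.55 to 7.58 in wild type, at 5.09 and 4.87 in mutants 1 and 3 and at 6.59 and 6.71 in mutants 2 and 4. Tmem87a was lowest in wild type 2 (4.31) and at 7.31, 7.70 and 7.69 in mutants 1 to 3 but 5.93 in mutant 4. For each of these genes some mutants lay inside the wild-type range and others outside it. Cish, Me1 and Rpl29 make up the 6.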
